A study of Saccharomyces cerevisiae with 16 samples.

Results

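Budding yeast that had already switched on its nitrogen-scavenging genes continued to change as more glucose was fed with oxygen, and 196 of 5213 genes tested moved steadily by at least 1 log2 unit. They were found on the 4 aerobic arrays of highest feed glucose, taken at 14.5, 27.25, 42.65 and 53.95 h (16.96, 30.97, 47.91 and 60.34 g/L). A riser increased at each of the 3 steps between these arrays and ended at least 1 log2 unit higher, and a faller decreased at each step and ended at least 1 lower. This gave 95 risers (1.82% of the genes tested) and 101 fallers (1.94%). The genes were chosen by their measured log2 values on these same 4 arrays, so those values are a description and carry no test. A straight-line limma fit over the 4 arrays called 37 genes higher (0.71%) and 79 lower (1.52%), and these calls are not used as support for the chosen genes.

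The series holds 16 single-colour expression arrays of the baker's yeast *Saccharomyces cerevisiae*, strain CEN.PK113-7D, which is haploid and of mating type **a**, in an aerobic and an anaerobic time course of 8 arrays each. Cells began on a glucose-limited mineral medium, and the glucose supplied was then raised in a straight line to bring on a shortage of ammonia. The labels' glucose kept rising to the last array of each series, and the time at which ammonia ran short is not stated. All arrays share the strain, and oxygen, feed glucose and time are the only differences the labels give. The groups used were aerobic high feed (the 4 arrays above), aerobic low feed (4 arrays at 0, 4.1, 6.85 and 9.6 h, with 1 to 11.56 g/L) and anaerobic high feed (5 arrays at 16.88, 26.52, 35.67, 42.85 and 50.85 h, with 16.19 to 46.75 g/L). The labels' glucose concentration was read as that of the feed, and glucose left in the culture was not analysed here. Feed glucose and time had a correlation of 1.00 in each group, so an effect of glucose and one of elapsed time cannot be told apart. Separate cultures are not mentioned in the labels, so a p-value here measures only how serial samples scatter around a straight line.

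Glucose acts on yeast genes along linked routes. Through the sensors Snf3 and Rgt2, plentiful glucose lifts the repressor Rgt1 from the genes of low-affinity hexose transporters. It also holds the Snf1 kinase inactive, so that the Mig repressors shut off genes for gluconeogenesis, ethanol and organic acids. Shortage of a good nitrogen source acts separately, by relieving nitrogen catabolite repression, the silencing of genes for poor nitrogen sources.

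Genes of nitrogen shortage were at a high level throughout. The 40 measured targets of nitrogen catabolite repression had mean levels of 13.63, 13.77, 13.72 and 13.76 log2 intensity units on the 4 high-feed aerobic arrays, against 11.87, 10.89, 10.93 and 14.05 on the low-feed arrays at 0, 4.1, 6.85 and 9.6 h. They were thus already near their high level at 14.5 h, and had reached it by 9.6 h. *GAP1*, the general amino acid permease, stood at 15.83, 15.81, 15.78 and 15.76 on the high-feed arrays, and *DAL80*, a GATA-type repressor of the pathway, at 14.64, 14.77, 14.75 and 14.79. Both were level over the 4 arrays. The 3 glucose-induced marker genes *MIG2*, *HXT1* and *HXT3* are risers on the arrays that chose the genes and so are no check of the setting.

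Array medians on the 4 high-feed arrays lay between 11.46 and 11.51 log2 units, and 5.72% to 5.93% of probe sets were under 4, the level taken here as the floor of reliable signal. The 14.5 h array stood somewhat apart. It correlated at 0.971 to 0.984 across genes with the 3 later arrays, which correlated at 0.993 to 0.998 among themselves, and at 0.960 with the 0 h array. Among the low-feed arrays the one at 9.6 h differed most, its median correlation with the other aerobic arrays being 0.870. Each time is 1 array, which limits precision throughout, and in bulk RNA fewer cells of a type and less RNA per cell cannot be told apart.

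Most risers moved early and most fallers more evenly. The median riser had made 66.8% of its change by 27.25 h, when 32.3% of the feed glucose range had been covered, and 78 of the 95 had made the greater part of it. The median faller had made 48.8%, and 48 of the 101 had made the greater part. Between 27.25 and 53.95 h a further change of 1 log2 unit or more remained in 21 risers and 39 fallers. Without the 14.5 h array the same rule found 27 risers, of which 21 were among the 95, and 52 fallers, of which 39 were among the 101.

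**Figure D1:**
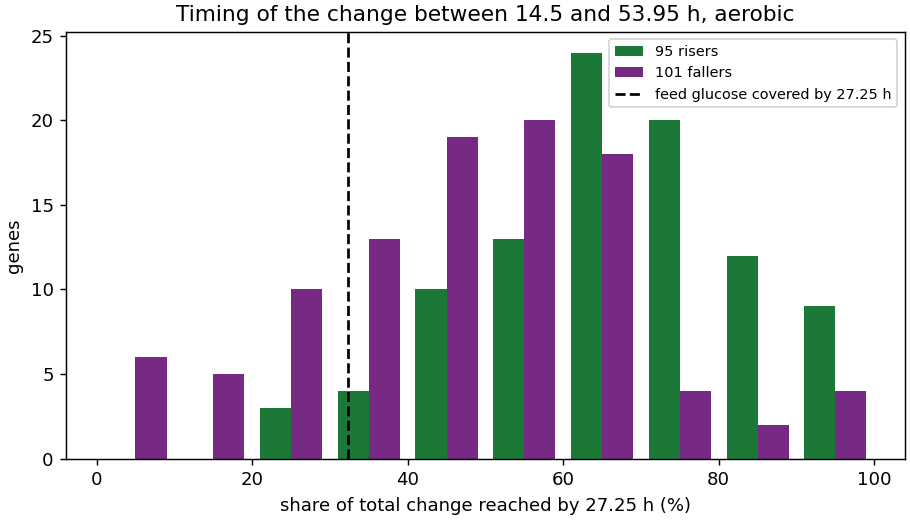
Share of each gene's change between 14.5 and 53.95 h that was reached by 27.25 h (percent, horizontal) against the number of genes (vertical), for the 95 risers (green) and 101 fallers (purple). The dashed line marks the 32.3% of the feed glucose range covered by then, and the risers lie further to the right, with a median of 66.8% against 48.8%.

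Total changes had a median of 1.76 log2 units for risers and -1.75 for fallers, against 0.04 over all genes tested. These values include arrays under the floor. With those arrays set to the floor the medians were 1.75 and -1.63, the change was at least 2 units in 36 risers and 37 fallers, against 39 and 41 on the values as deposited, and at least 4 units in 8 risers and 12 fallers, against 12 of each. It was then under 1 unit for 1 riser, *BSC1*, and 3 fallers, *BOP2*, *SDD1* and *YGL262W*. Slopes on feed glucose ran between 0.21 and 1.78 log2 units per 10 g/L in risers and between -2.78 and -0.21 in fallers. At the limit, *ACA1* (1.00) and *EST2* (1.01) were the last risers inside it, and *SRL1* (0.99) and *YOX1* (0.99) lay just outside. *RCH1* (-1.01) and *AGX1* (-1.01) were the last fallers inside, and *MPC3* (-0.99) and *OAZ1* (-0.98) lay just outside. Of the 5213 genes, 804 increased at every step and 549 decreased at every step whatever the size.

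**Figure D2:**
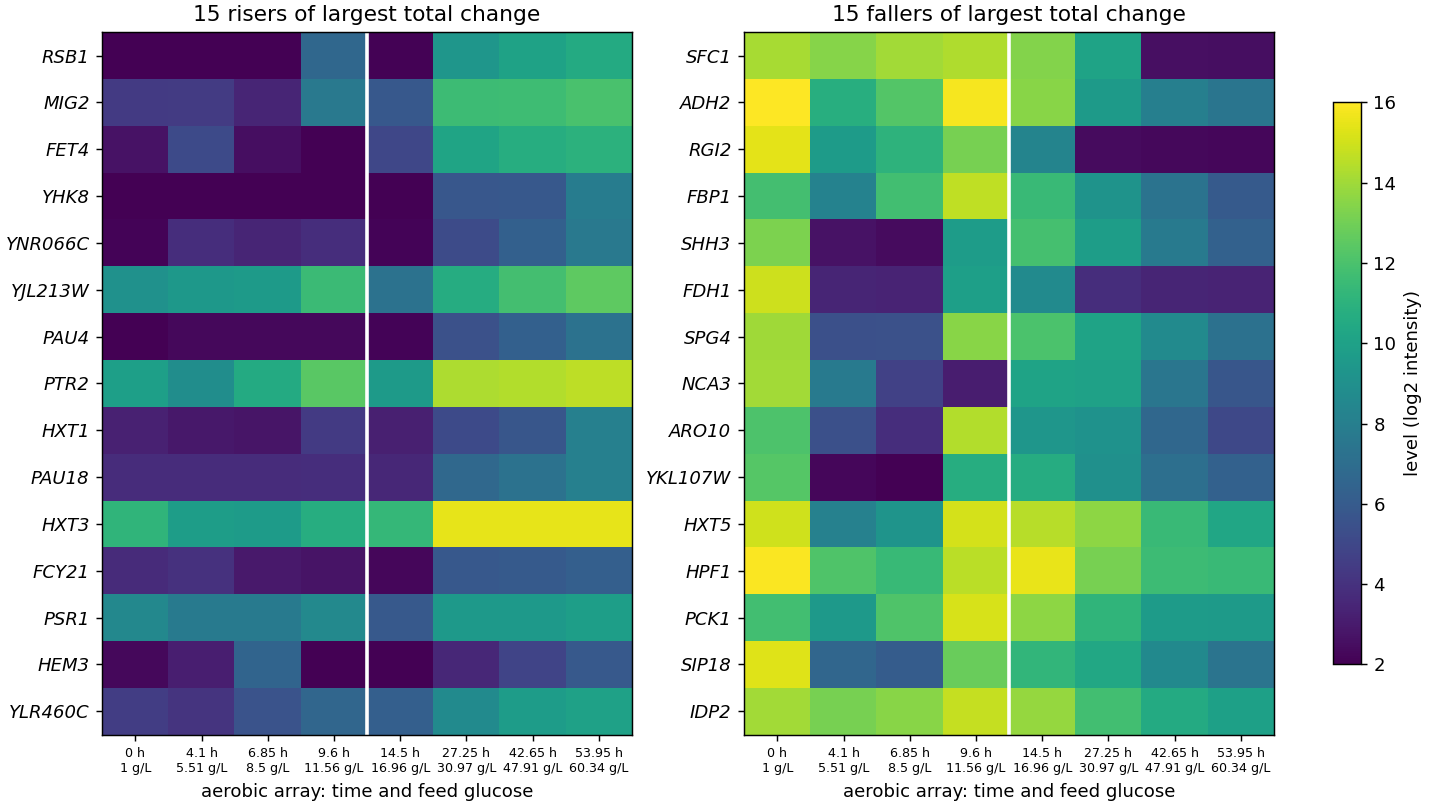
Level (log2 intensity, colour) of the 15 risers (left) and 15 fallers (right) of largest total change on each of the 8 aerobic arrays, in order of time and feed glucose. The white line separates the 4 low-feed arrays from the 4 high-feed arrays that chose the genes. The step between 14.5 and 27.25 h is the largest one for MIG2, PTR2 and HXT3, and most of the fallers were also high at 0 and 9.6 h.

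The risers included genes for glucose repressors and low-affinity transporters. *MIG2*, a zinc-finger repressor that glucose induces, read 5.85, 11.60, 11.66 and 11.99 log2 units at the 4 successive high-feed times, a total change of 6.14 and a slope of 1.25 ± 0.41 (SE) per 10 g/L. Its low-feed arrays read 4.40, 4.42, 3.47 and 7.69, so every array from 27.25 h on lay above all of them and the 14.5 h array lay among them. *MIG3*, a related repressor, read 6.83, 9.23, 9.47 and 10.27, and only the 14.5 h array was within its low-feed range of 3.33 to 7.60. *STD1*, a cofactor of Rgt1 in glucose signalling, read 10.24, 11.50, 11.62 and 11.83.

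*HXT3*, a low-affinity hexose transporter, read 11.31, 15.46, 15.48 and 15.51 log2 units, a total change of 4.20, of which 99.0% was made by 27.25 h. *HXT1*, the low-affinity transporter associated with the most plentiful glucose, read 3.23, 5.14, 5.76 and 8.12. Its largest step was the last one, and because the first array was under the floor its change is at least 4.12 log2 units. *HXT4*, the third measured gene of a list of low-affinity or glucose-induced transporters, read 14.03, 14.89, 14.78 and 14.68 and was no riser. Of 21 glucose sensors and regulators, 3 were risers and 0 fallers: *MIG2*, *MIG3* and *STD1*. The sensor genes *SNF3* (-0.76) and *RGT2* (-0.48) and the repressor gene *MIG1* (0.03) changed by less than 1 unit.

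Of 5 other hexose transporter genes tested, 1 was a riser and 1 a faller. *HXT5*, a transporter of slow-growing and starved cells, was a faller at 14.50, 13.64, 11.48 and 10.30. *HXT9* was a riser at 6.52, 6.88, 7.44 and 7.95. The high-affinity genes *HXT2* (-0.54) and *HXT7* (-0.42, on a probe set shared with a near-identical copy and therefore uncertain) were neither.

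**Figure D3:**
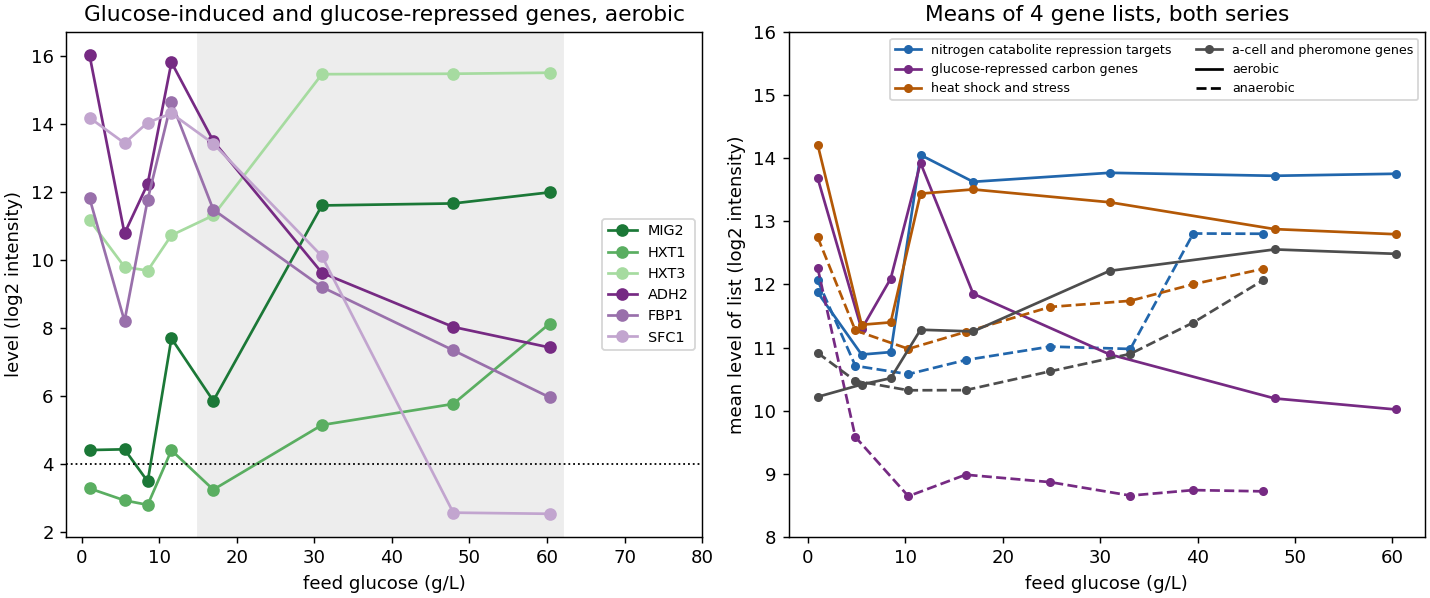
Left, levels (log2 intensity) of 3 glucose-induced and 3 glucose-repressed genes on the 8 aerobic arrays against feed glucose (g/L); the grey band holds the 4 high-feed arrays and the dotted line is the floor of 4. Right, mean level of 4 gene lists against feed glucose in the aerobic (solid) and anaerobic (dashed) series. MIG2, HXT1 and HXT3 go up inside the band as ADH2, FBP1 and SFC1 go down, while the aerobic mean of the nitrogen catabolite repression targets stays between 13.63 and 13.77.

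Genes for growth on other carbon sources made up the clearest group of fallers. Of 32 such genes 14 were fallers and 0 were risers, and the list's median change was -1.10 log2 units, against 0.04 over all genes. The list mean was 11.85, 10.89, 10.19 and 10.02 at the 4 times. At 0 and 9.6 h it had been higher, at 13.69 and 13.93, and at 4.1 and 6.85 h it was 11.29 and 12.09.

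*SFC1*, the mitochondrial carrier that exchanges succinate for fumarate, had the largest change of all, reading 13.42, 10.11, 2.56 and 2.52 log2 units. The last 2 arrays were under the floor, so its decrease is at least 9.42 units, and its 4 low-feed arrays lay at 13.43 or above. *ADH2*, the alcohol dehydrogenase that oxidises ethanol, read 13.50, 9.62, 8.02 and 7.42. *FBP1*, the fructose-1,6-bisphosphatase of gluconeogenesis, read 11.48, 9.20, 7.33 and 5.95, and *PCK1*, the phosphoenolpyruvate carboxykinase of the same route, read 13.64, 11.15, 9.69 and 9.65.

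The glyoxylate cycle gene *ICL1*, isocitrate lyase, changed by -3.33, and *IDP2*, the cytosolic isocitrate dehydrogenase that uses NADP, by -3.80. *MDH2*, the cytosolic malate dehydrogenase, changed by -2.05. The activator genes of this programme were fallers as well, *ADR1* by -2.03 and *CAT8* by -1.14. The lactate permease gene *JEN1* changed by -1.93, the acetyl-CoA synthetase gene *ACS1* by -1.85, the acetate and ammonium transporter family gene *ATO2* by -1.71, and *YAT2* and *IDP3* made up the 14.

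Not all of this list went the same way. *MLS1*, the malate synthase of the glyoxylate cycle, read 13.98, 14.17, 14.41 and 14.43, and *CIT2*, the peroxisomal citrate synthase, 13.98, 14.06, 14.25 and 14.35, so both ended above their start by less than 1 unit. *ADY2*, an acetate transporter gene, read 7.78, 3.76, 2.94 and 3.24, a decrease of at least 3.78. Its last 3 arrays were under the floor, and so was the last step, at which it missed the rule. Changes in the central routes were smaller, with medians of -0.28 for the tricarboxylic acid cycle and -0.16 for glycolysis. At every step 9 genes of that cycle and 7 of glycolysis decreased, and 1 and 0 increased. Of all 5213 genes tested, 549 decreased at every step. Of 18 glycolytic enzymes, 17 genes of the tricarboxylic acid cycle and 17 of the mitochondrial ATP synthase, 0 were risers and 0 fallers, and of 23 genes of the respiratory chain 0 were risers and 1 a faller.

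In fermentation 1 of 14 genes was a riser and 0 were fallers. *PDC5*, a minor pyruvate decarboxylase, read 11.32, 12.76, 14.38 and 14.71, and lay above its low-feed range of 10.44 to 11.18 on all 4 arrays. The main form *PDC1* read 16.01, 16.01, 16.10 and 16.05.

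**Figure D4:**
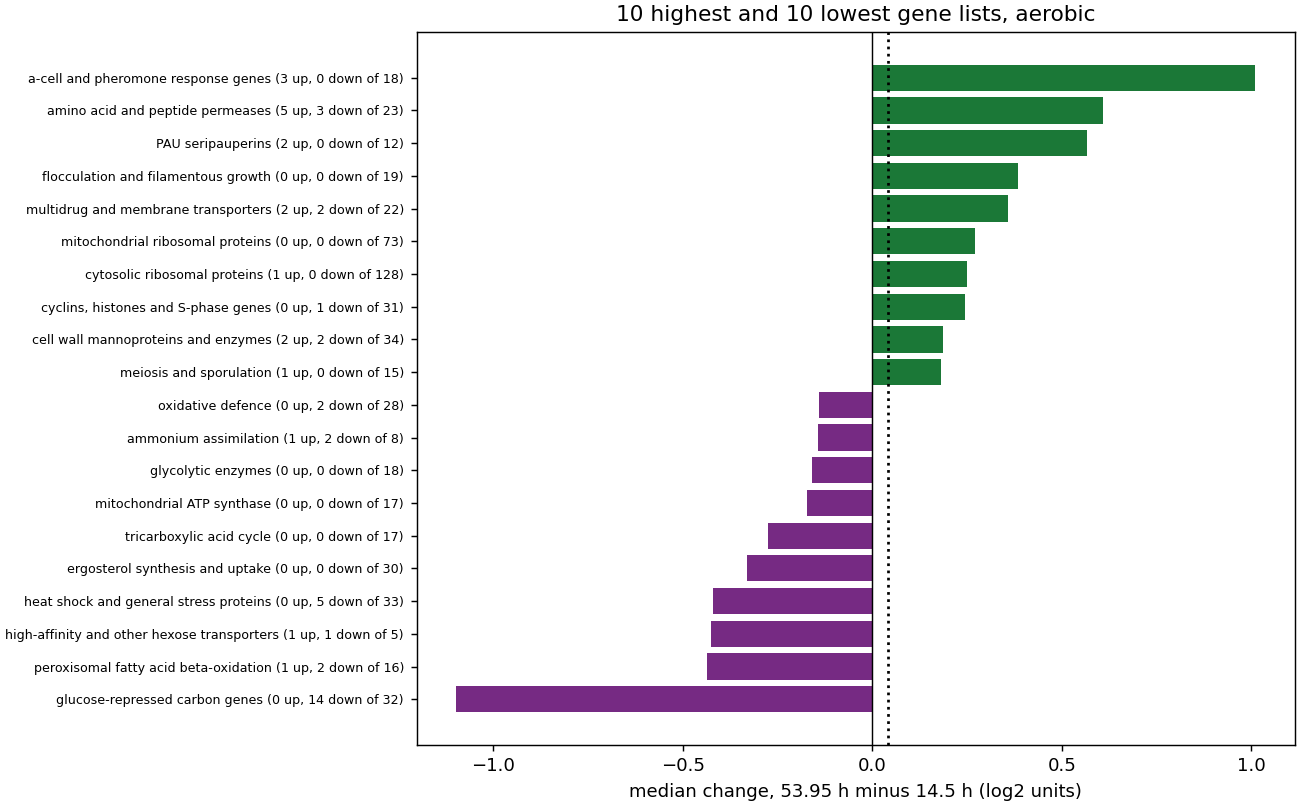
Median change between 14.5 and 53.95 h in the aerobic series (log2 units) for the 10 gene lists with the highest and the 10 with the lowest median among lists of at least 5 tested genes; counts of risers (up) and fallers (down) are in the labels, and the dotted line is the median of 0.04 over all genes. The glucose-repressed carbon genes (-1.10) and the a-cell and pheromone genes (1.01) lie at the ends.

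Several other large fallers are known from respiring or slowly growing cells. *RGI2*, induced in respiratory growth, read 8.33, 2.40, 2.29 and 2.26 log2 units, a decrease of at least 4.33. *FDH1*, a formate dehydrogenase, read 8.71, 3.83, 3.44 and 3.40, a decrease of at least 4.71, and both were under the floor from 27.25 h on. *SHH3*, a homolog of a succinate dehydrogenase subunit, read 11.86, 9.82, 7.78 and 6.36.

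*SPG4*, needed for survival in stationary phase, changed by -4.84 and *NCA3* by -4.39, and only 3.45% of the *NCA3* change had come by 27.25 h. *ARO10*, a decarboxylase that makes fusel aldehydes, read 9.38, 9.11, 6.69 and 5.04. *YKL107W* changed by -4.30, and *HPF1*, a cell wall mannoprotein, by -4.01. Of 16 genes of peroxisomal fatty acid oxidation 1 was a riser and 2 were fallers, among them *CTA1*, the peroxisomal catalase, at 10.84, 9.87, 8.33 and 7.12.

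Heat shock and general stress genes held 5 fallers and 0 risers among 33, with a median change of -0.42. These were *SIP18*, a hydrophilin of dried cells (-3.85), the Hsp70 genes *SSA3* (-2.16) and *SSA4* (-2.02), the Hsp110 gene *SSE2* (-1.50) and the small heat shock gene *HSP26*, which read 15.51, 15.19, 14.59 and 14.09. The abundant stress gene *HSP12* read 15.62, 15.68, 15.57 and 15.40 and *HSP104*, the disaggregase, 14.94, 14.71, 14.66 and 14.59. Neither was a faller.

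Within nitrogen metabolism the changes went both ways. Of the 40 nitrogen catabolite repression targets 4 were risers and 2 fallers, and their median change was -0.03. *PTR2*, the transporter of di- and tripeptides, read 9.62, 14.28, 14.38 and 14.59. The amino acid permease genes *AGP1* (1.74) and *DIP5* (1.66) and the ammonium permease gene *MEP3* (1.42) were the other risers. *GDH3*, a glutamate dehydrogenase that uses NADP, changed by -2.01, and *GDH2*, the NAD-dependent glutamate dehydrogenase that releases ammonia, by -1.27.

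Of 23 amino acid and peptide permeases, 5 were risers and 3 fallers. *OPT1*, the transporter of glutathione and oligopeptides, read 9.95, 12.91, 13.07 and 13.09, above its low-feed range of 5.24 to 9.20 throughout. *TAT2*, the tryptophan permease, read 8.72, 9.50, 10.27 and 10.61, within its low-feed range of 8.46 to 11.79. The fallers were the S-methylmethionine permease gene *MMP1* (-1.79), the glutamine permease gene *GNP1* (-1.43) and the histidine permease gene *HIP1* (-1.24).

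The riser of largest change was *RSB1*, an exporter of sphingoid long-chain bases, at 2.07, 9.33, 10.09 and 10.58 log2 units. Its first array was under the floor, so the change is at least 6.58, and its low-feed arrays read 1.98, 1.99, 1.98 and 6.69. *FET4*, the low-affinity iron transporter, read 4.98, 10.18, 10.71 and 11.02, above a low-feed range of 1.98 to 5.15 from 27.25 h on. *ALR2*, a gene of the magnesium transporter family, read 7.56, 9.41, 10.97 and 11.31.

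*HEM3*, the porphobilinogen deaminase of heme synthesis, read 2.05, 3.58, 4.88 and 5.91 (at least 1.91), and *FCY21*, a putative purine and cytosine permease gene, 2.24, 5.85, 5.98 and 6.25 (at least 2.25). *PSR1*, a plasma membrane phosphatase of the sodium stress response, read 5.93, 9.53, 9.54 and 9.83, against 7.69 to 8.59 on the low-feed arrays, so the 14.5 h array lay below all 4 of those and the later arrays above. *PAU4* and *PAU18*, of the seripauperin family, changed by at least 3.27 and 4.11, both on probe sets shared within the family and therefore uncertain. The little-studied *YHK8* (at least 3.87), *YNR066C* (at least 3.66), *YJL213W* (5.22) and *YLR460C* (3.78) complete the 15 of largest change on the values as deposited, an order that counts arrays under the floor.

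Several pheromone-response genes ended above their start. Of 18 genes of **a** cells and the pheromone pathway 3 were risers and 0 fallers. At every step 9 of the 18 increased, against 804 of all 5213 genes tested, and the list's median change was 1.01. *FAR1*, which arrests the cell cycle in response to pheromone, read 11.92, 13.09, 13.48 and 13.62. *SST2*, which damps the pheromone signal, read 10.21, 11.29, 11.83 and 11.87, and *BAR1*, the protease that degrades alpha factor, 12.39, 13.24, 13.63 and 13.67. The cell fusion gene *FIG1*, under the floor on its first array, changed by at least 1.70 and *PRM1* by 3.27, and both turned at the last array.

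Markers of other cell types moved in part. *MF(ALPHA)1*, the alpha-factor gene of the opposite mating type, read 10.54, 12.88, 13.00 and 12.60, against 5.27 to 6.07 on the low-feed arrays. The other alpha-cell markers were *STE3* at 8.96, 9.13, 8.38 and 8.38, and *SAG1* at 10.36, 11.06, 10.79 and 10.67. Over these 3 alpha-cell genes the mean was 9.95 to 11.02 on the high-feed arrays and 6.89 to 8.39 on the low-feed arrays, with 0 risers and 0 fallers, and none of these 3 was at the floor. Another alpha-factor gene of that list, *MF(ALPHA)2*, was under the floor on all 8 aerobic arrays and was not tested. Of 21 meiosis genes measured 15 were tested, of which 1, *SPS4*, was a riser and 0 were fallers, and the mean of the 15 lay between 6.31 and 6.58 on the high-feed arrays and 5.86 and 7.61 on the low-feed arrays. The meiotic recombination gene *SPO11* was under the floor on all 4 high-feed arrays. The part of other cells in the pheromone-gene values was not tested.

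All but 1 of the ribosomal genes changed by less than 1 log2 unit. Of 128 cytosolic ribosomal protein genes 74 increased at every step and 0 decreased at every step, with a median change of 0.25, and 1, *RPL41A* on a shared probe set, was a riser. The 73 mitochondrial ribosomal protein genes had a median change of 0.27 and the 83 ribosome biogenesis genes one of -0.05, with 0 risers and 0 fallers in both. Of the mitochondrial group 25 increased and 4 decreased at every step, and of the biogenesis group 10 and 5. Over all 5213 genes tested, 804 increased and 549 decreased at every step.

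Set against the low-feed arrays, most risers ended above the range seen there and most fallers ended within it. At 53.95 h, 73 of the 95 risers lay above all 4 low-feed arrays, 22 within their range and 0 below, while at 14.5 h these counts had been 19, 55 and 21. Positions were read from the values as deposited, arrays under the floor included. For example, *YHK8* counted as above at 14.5 h with 2.05, against a low-feed range of 1.97 to 1.98. Among fallers 1 lay above, 59 within and 41 below at 53.95 h, and 11, 79 and 11 at 14.5 h. The genes were chosen by these same high-feed values, so the counts are a description only. No share over all genes tested was set beside them. Averaged over the fallers, the 8 aerobic arrays in order of time read 12.71, 9.69, 9.75, 12.32, 11.80, 10.78, 9.92 and 9.56 log2 units, so these genes had already been low at 4.1 and 6.85 h and high at 0 and 9.6 h. Averaged over the risers, they read 8.34, 8.49, 8.38, 8.68, 8.49, 10.08, 10.45 and 10.81.

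Across the low-feed aerobic arrays themselves no slope passed the test. The limma slope test with Benjamini-Hochberg adjustment called 0 of 5213 genes (0.0%) in either direction, and 80 genes, 7 risers and 5 fallers among them, had an unadjusted p under 0.05. The 9.6 h array weighed on this count, since 1011 genes had such a p without it, again with 0 called.

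The anaerobic high-feed arrays, which had no part in choosing the genes, gave the other test of their response. Over 16.19 to 46.75 g/L the limma slope test called 369 genes higher (7.08% of those tested) and 292 lower (5.6%) at an adjusted p under 0.05; after renewed quantile normalisation the split was 320 higher and 419 lower. Of the 95 risers 34 rose there (35.8%) and 5 fell (5.26%). Of the 101 fallers 24 rose (23.8%) and 14 fell (13.9%). Under the floor on all 5 anaerobic high-feed arrays were 3 risers and 8 fallers, against 51 of all genes tested. Such genes stay in these counts, and *BOP2*, 1 of the 24 fallers called higher, is among them. The median anaerobic change was 0.75 log2 units for risers and 0.54 for fallers, against 0.08 over all genes, so the median faller ended higher, not lower, without oxygen.

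These calls rested on the whole span of 5 arrays. Without the 16.88, 42.85 or 50.85 h array the test called 4, 7 and 0 genes in all, against 661, and 956 genes still had an unadjusted p under 0.05 without the 50.85 h array. Without the 26.52 h array it called 109. The 77 called slopes of risers and fallers were picked on these same 5 arrays, so a kept sign is a description only. None of the 77 changed sign when any 1 array was left out. With all 8 anaerobic arrays 9 of them did, with only the last 3 arrays *PAU18* did, and fallers called higher numbered 2 with all 8, against 24. Of the 40 nitrogen catabolite repression targets 14 rose and 1 fell in the same span, with means of 10.80, 11.02, 10.98, 12.81 and 12.80 over the 5 arrays, where the aerobic means were level; the part of that change in the members' anaerobic slopes was not tested.

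**Figure D5:**
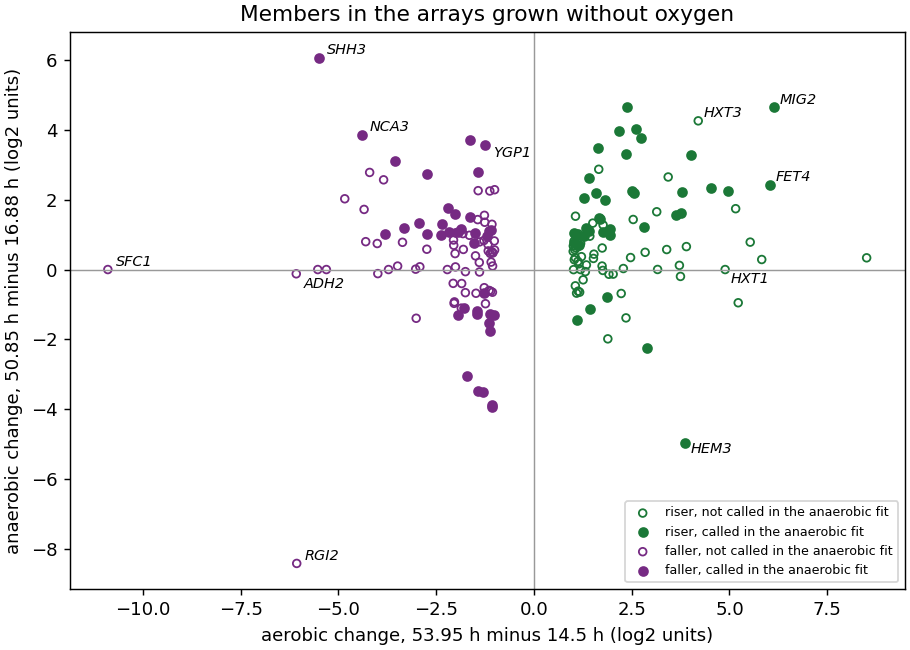
Change of each riser (green) and faller (purple) over the aerobic high-feed arrays (53.95 h minus 14.5 h, horizontal) and over the anaerobic high-feed arrays (50.85 h minus 16.88 h, vertical), both in log2 units. Filled points are genes called by the limma slope test in the anaerobic arrays: 34 risers and 24 fallers above 0, and 5 risers and 14 fallers below it. Values under the floor are included, and BOP2, a filled faller above 0, was under it on all 5 anaerobic arrays.

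Glucose-regulated risers gave mixed results without oxygen. *MIG2* read 5.85, 11.60, 11.66 and 11.99 log2 units with oxygen and 3.84, 3.84, 4.55, 6.12 and 8.50 without it, where it rose by 1.49 ± 0.30 (SE) per 10 g/L (limma adjusted p = 0.0377, 5 arrays). *STD1* rose as well, by 0.74 ± 0.11 (limma adjusted p = 0.0257). *HXT3* read 9.85, 10.22, 9.99, 10.50 and 14.12 without oxygen, high on the last array alone, and was not called. *HXT1* read 2.00, 2.00, 2.00, 2.01 and 2.00 there, under the floor on every array. *HXT4*, no riser with oxygen, rose without it by 2.08 ± 0.24 (limma adjusted p = 0.0169).

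Other risers had steep slopes without oxygen as well. *YGR035C*, of unknown function, read 4.10, 5.45, 5.38, 7.81 and 8.77 (slope 1.52 ± 0.21, limma adjusted p = 0.0243). *ARI1*, an aldehyde reductase, read 7.38, 7.81, 8.73, 10.28 and 11.43 (1.37 ± 0.15, limma adjusted p = 0.0169), and *EEB1*, an ester synthase, 10.55, 11.67, 12.08, 13.91 and 14.52 (1.33 ± 0.13, limma adjusted p = 0.0137). In each the last anaerobic array was the highest, and the slopes of genes with anaerobic arrays under the floor, among them *MIG2*, *SHH3*, *HEM3* and *SNO1*, rest partly on values below it. *FET4* read 7.45 at 0 h without oxygen. It was already high at 16.88 h, the high-feed arrays reading 10.29, 11.34, 11.76, 12.14 and 12.72 (0.75 ± 0.07, limma adjusted p = 0.0115). *HEM3* went the other way, at 7.27, 7.49, 6.72, 4.06 and 2.30 (-1.72 ± 0.34, limma adjusted p = 0.0381), as did *SRO9*, *XDJ1*, *MEP3* and *UTR2*.

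The 3 pheromone-response risers were among those that rose without oxygen. *FAR1* had a slope of 0.49 ± 0.07, *SST2* one of 0.44 ± 0.09 and *BAR1* one of 0.70 ± 0.09. Of the 18 genes of that list 13 rose and 0 fell there. *MF(ALPHA)1* rose too, at 4.45, 4.94, 4.94, 5.43 and 5.56, far under its aerobic level (slope 0.36 ± 0.07, limma adjusted p = 0.037).

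Among fallers, the glucose-repressed carbon genes were mostly low on the anaerobic high-feed arrays. Their list mean was 10.02 to 11.85 on the 4 aerobic arrays and 8.65 to 8.98 on these 5 anaerobic ones, after 12.26 at 0 h without oxygen, and *SFC1*, *FBP1* and *FDH1* were under the floor on each anaerobic array. *ADH2* read 4.02 to 4.25 there. Of the 32 genes 8 fell and 3 rose: *ATO2* fell by 1.01 ± 0.06 per 10 g/L (limma adjusted p = 0.00681), *JEN1* by 0.45 ± 0.07 and *CAT8* by 0.39 ± 0.07, while *ICL1* rose by 0.38 ± 0.06 and *IDP2* by 0.33 ± 0.08, starting at 8.96 and 7.11 log2 units. With all 8 anaerobic arrays the slopes of *ICL1* and *IDP2* were -0.185 and -0.221. The fallers of steepest anaerobic decrease were *SNO1*, of the vitamin B6 gene family (-1.45 ± 0.23), *PDH1*, a methylcitrate dehydratase (-1.36 ± 0.17), *GNP1* (-1.20 ± 0.17) and *MRK1*, a glycogen synthase kinase homolog (-1.08 ± 0.22).

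Of the 5 stress genes that were fallers with oxygen, 4 rose without it. Of the 33 heat shock and stress genes 16 rose and 1 fell over the anaerobic high-feed arrays. Their mean was 13.51, 13.30, 12.88 and 12.80 over the aerobic high-feed arrays, against 11.25 to 12.25 over the anaerobic ones, lowest at 16.88 h and highest at 50.85 h. *HSP26* read 10.66, 11.86, 12.32, 12.69 and 13.47 without oxygen (0.86 ± 0.07, limma adjusted p = 0.0115). *SSA3*, *SSA4* and *SSE2* rose there as well, *SSA3* with a slope that was -0.0906 with all 8 anaerobic arrays, and *SIP18* was not called. *YGP1*, a cell wall glycoprotein gene of nutrient-limited cells, read 15.43, 14.94, 14.30 and 14.19 with oxygen and 9.92, 11.24, 11.57, 12.44 and 13.49 without it (1.10 ± 0.09, limma adjusted p = 0.0115). *SHH3* had the steepest slope of the 77 called, at 2.20, 4.80, 5.09, 7.53 and 8.29 (1.96 ± 0.20, limma adjusted p = 0.0137). The difference between the slopes of the 2 series was not tested, since the aerobic slopes chose the genes.

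Under the same rule of strict order and 1 log2 unit, the anaerobic high-feed arrays held 153 genes that rose (2.93%) and 74 that fell (1.42%). Of the 95 aerobic risers 19 were among the first and 1 among the second, and of the 101 aerobic fallers 19 were among the first and 9 among the second. The 19 fallers that rose include *BOP2*, which was under the floor on all 5 of these arrays.

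Risers and fallers lay often near chromosome ends. By the gene order of the RefSeq annotation, 23 of the 95 risers (24.2%) and 23 of the 101 fallers (22.8%) were within 20 genes of an end, against 465 of 5210 placed genes tested (8.93%). Neighbouring genes were both risers in 11 pairs, such as *SRP40* and *PTR2*, *YJL213W* and *OPT1*, and *YNR065C* and *YNR066C*. They were both fallers in 6 pairs, such as *MHT1* and *MMP1*, *YLL053C* and *AQY2*, and *PAI3* and *SIP18*. All placed genes tested formed 4632 neighbouring pairs. How many pairs a like number of other genes would form was not tested. These counts are descriptions, and signal shared between overlapping or related genes was not tested.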

How the data were processed

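Total RNA was labelled and hybridised to 16 single-colour arrays. The deposited values are on a log2 scale and come from the authors' GCRMA step, per the submitters' processing notes. That method subtracts background, normalises and gives 1 intensity per probe set. Its version, its options and any joint normalisation of both series are not stated, and the scale was inferred from values between 1.96 and 16.75.

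Of 5716 probe sets, 5498 had 1 gene symbol, 0 several and 218 none, and the last were left out; 12 symbols were updated. The probe set with the highest mean stood for each of 47 genes that had more than 1. Of 5449 genes, 5213 passed a minimum of 4 log2 units on 3 or more arrays, and only these were tested. No array pair held identical values. Where a side of a change was under 4, the change was measured from 4 and given as a lower bound.

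Slopes on feed glucose, per 10 g/L, were fitted in each group separately by lmFit and a trended eBayes step (limma 3.58.1, R 4.3.3). A gene was called where its p, adjusted over all genes tested by Benjamini and Hochberg's method, was under 0.05. The fit was tested on simulated data. Alternatives were other filters, renewed quantile normalisation, median centring, the mean of probe sets, no trend, slopes on time or log2 glucose, other limits, all 8 or the last 3 anaerobic arrays (the last chosen after seeing the data) and leaving out each array.

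The genes and gene lists were chosen with earlier results of these data known. Named genes were the 15 risers and 15 fallers of largest change, the 3 markers, up to 4 members of each list described, the 2 genes nearest each side of the limit and the 5 members of steepest anaerobic slope each way. Other genes named were chosen after their values were seen. Chromosome neighbours came from the RefSeq R64 annotation, by name only.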

Additional observations from a re-analysis of the deposited data

Results flagged for a closer look

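On the high-feed aerobic arrays, 9 of the most changed genes had the 14.5 h array far from the other 3. The gap between it and the nearest later array, as a share of the whole range, was 0.99 for *HXT3*, 0.977 for *RGI2*, 0.938 for *PTR2*, 0.937 for *MIG2*, 0.922 for *PSR1*, 0.919 for *FDH1*, 0.9 for *FCY21*, 0.861 for *FET4* and 0.854 for *RSB1*. These genes were chosen for a steady change over these same serial arrays, so no chance level can be given for such a gap.

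Among the low-feed aerobic arrays the 9.6 h array lay apart. The gap was 0.908 of the range for its median correlation with the rest of the series, 0.919 for the mean of 83 ribosome biogenesis genes (6.07 at 9.6 h, against 11.73 to 12.22 at the other low-feed times) and 0.861 for the mean of 128 cytosolic ribosomal protein genes (12.25, against 14.74 to 15.14).

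For 20 genes the anaerobic high-feed arrays moved at every step, and by at least 1 log2 unit in all, in the direction opposite to the aerobic ones, and the difference was not tested. The genes lower with more aerobic glucose changed over the anaerobic arrays by 6.08 (*SHH3*), 3.87 (*NCA3*), 3.57 (*YGP1*), 3.10 (*TKL2*), 2.81 (*HSP26*), 2.76 (*GND2*), 1.77 (*CDA1*), 1.60 (*SSA4*), 1.52 (*RNR3*), 1.33 (*PMA2*), 1.30 (*PRM4*), 1.18 (*ICL1*), 1.18 (*HEF3*), 1.13 (*MSC1*), 1.09 (*SSA3*), 1.08 (*BTN2*), 1.05 (*SSE2*), 1.02 (*BOP2*) and 1.01 (*IDP2*) log2 units. *MEP3*, higher with more aerobic glucose, changed by -1.12. *BOP2* was under the floor of 4 on all 5 anaerobic arrays, and *SHH3* on 1, so that its change is at least 4.29. Another 4 genes did the same by less than 1 unit: *UTR2* (-0.79), *FLR1* (0.98), *YKL107W* (0.80, under the floor throughout) and *AQY2* (0.58).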

How the results depend on the processing

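Risers numbered 302 and fallers 218 at a limit of 0.5 log2 units, and 39 and 41 at a limit of 2. Leaving out 1 array gave 27 to 171 risers and 52 to 130 fallers; the lowest counts came without the 14.5 h array. The aerobic high-feed slope fit called 116 genes, against 66 after renewed quantile normalisation, 37 without the intensity trend, 793 on log2 feed glucose and 76 to 1358 with 1 array left out.

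The anaerobic slope fit called 661 genes, against 218 with no filter, 1012 with arrays centred on their medians, 13 with the last 3 arrays and 0 to 621 with 1 array left out. With the same settings, risers called higher numbered 34, against 17 with no filter, 22 with all 8 anaerobic arrays, 4 with the last 3, and 0 to 32 with 1 array left out. Risers called lower numbered 5, against 1 with no filter, 8 with median centring, 3 with all 8 arrays and 1 with the last 3. Fallers called higher numbered 24, against 2 with all 8 arrays and 1 with the last 3. Fallers called lower numbered 14, against 8 with no filter, 9 with all 8 arrays and 2 with the last 3. Leaving out 1 array gave 0 to 7 risers called lower, 0 to 25 fallers called higher and 0 to 16 fallers called lower. The cause of these shifts was not tested.

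Of 1075 recomputed anaerobic slopes, 612 counted as the same and 453 moved or became weaker. The other 10 changed sign. With all 8 arrays these were *NCA3* (-0.156), *IDP2* (-0.221), *ICL1* (-0.185), *PMA2* (-0.0207), *BOP2* (-0.125), *SSA3* (-0.0906), *BTN2* (-0.0497), *MSC1* (-0.0981) and *YMR206W* (0.0883), and with the last 3 *PAU18* (-0.118). Of 210 recomputed total changes of named genes 0 changed sign and 51 moved. The low-feed fit called 0 genes under every setting run. No paired analysis was possible because replicate numbers only order serial samples.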

Other observations

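Several fallers belong to pairs of related genes whose other member changed by less than 1 log2 unit. These pairs were picked after their values were seen. *TKL2* changed by -3.55 log2 units between 14.5 and 53.95 h and its partner *TKL1*, the main transketolase, by -0.12. In the same branch of sugar metabolism *NQM1* changed by -3.36 and *TAL1* by -0.27, and *GND2* by -2.73 and *GND1* by -0.03. The plasma membrane proton pump gene *PMA2* changed by -2.93 and *PMA1* by 0.10, and the elongation factor gene *HEF3* by -1.86 and *YEF3* by -0.05. *NDE2*, an external NADH dehydrogenase gene, changed by -2.06 and *NDE1* by -0.13, and *GDH3* by -2.01 and *GDH1* by 0.03. Among the homologs of succinate dehydrogenase subunits *SHH3* changed by -5.50 and *SDH3* by -0.35, and *SHH4* by -2.01 and *SDH4* by -0.29. The Hsp110 gene *SSE2* changed by -1.50 and *SSE1* by -0.63, the largest change among these partners. Among risers, *PDC5* and *ALR2* changed by 3.39 and 3.75, and *PDC1* and *ALR1* by 0.04 and 0.12. Some partners stood high on the scale at 14.5 h, such as *PDC1* at 16.01 and *GDH1* at 15.64, where the highest value of the series was 16.75.

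Of 218 probe sets with no gene symbol, 7 met the rule for risers and 5 that for fallers.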
